A study of Mus musculus and Homo sapiens with 12 samples.

Results

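The genes described here are 41 genes of the Fanconi anaemia pathway, homologous recombination and the DNA damage checkpoint. They were listed by name, and earlier results of these data were known when they were chosen. Of the 41, 41 were matched by symbol among 55487 genes of the mouse table, and 40 among 78932 genes of the human table, where ATRIP was not analysed here. All matched genes passed the filter on low counts in their experiment. They were followed in 12 poly(A) RNA sequencing libraries, 3 in each of 4 groups. The mouse groups were lineage-negative, Kit-positive (LK) progenitors sorted live from E13.5 fetal livers. Embryos called wild type (WT) had loxP-flanked Ddx21 alleles (Ddx21f/f) and no Cre by the labels, and the conditional knockout (cKO) embryos carried the same alleles with Vav1-Cre, a Cre recombinase driven by the blood-cell promoter Vav1. The human groups were blood stem cell-like cells differentiated from H1, an embryonic stem cell line, and given a lentiviral hairpin with an mCherry marker, either the control shNC or shDDX21, which targets DDX21. These were sorted for CD34, CD45, CD43 and the vector 2 days after transduction, and they rest on a single cell line. The labels do not say whether libraries came from separate embryos or cultures, so p-values measure the spread between these libraries.

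The Fanconi pathway repairs crosslinks between DNA strands. A core complex of FANC proteins, with the ubiquitin-conjugating enzyme UBE2T, attaches ubiquitin to FANCD2 and FANCI, and nucleases organised by SLX4 then cut the DNA. Broken ends are sensed by MRE11, RAD50 and NBN, resected by RBBP8 (CtIP), EXO1 and DNA2, and repaired by recombination through the BRCA1, PALB2 and BRCA2 route. The kinases ATM and ATR, with CHEK1 and CHEK2, hold the cell cycle meanwhile. Blood stem cells depend on this pathway, and inherited loss of it is known for bone marrow failure. DDX21 is an RNA helicase of the nucleolus.

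Total counts were 21116079 to 23898130 in the mouse libraries and 15289510 to 19798608 in the human libraries. DDX21 RNA fell to 19.7% of the WT level in cKO cells and to 14.5% of the shNC level in shDDX21 cells. Of 10 stem and progenitor markers in mouse, 5 rose and 3 fell in cKO cells: Kit averaged 362 CPM (read counts as a rate of the scaled library size) in WT and 317 CPM in cKO, and Cd34 134 and 215 CPM. Of 8 in human, 5 rose and 3 fell, and CD34 averaged 248 CPM in shNC and 297 CPM in shDDX21. Among the mouse libraries, WT replicate 3 stood apart from the others of its group, and the cKO libraries were spread. Counts of WT replicates 1 and 2 differed by a chi-square per degree of freedom of 1.96, against 10.9 and 15.7 for the pairs with replicate 3. cKO replicates 1 and 2 gave 25.1, and their pairs with replicate 3 gave 7.25 and 7.82. The human pairs gave 1.54 to 1.71. Across genes, the deviations of WT replicate 3 and cKO replicate 2 from their group means had a correlation of 0.83. The correlation was -0.865 for WT replicate 3 with cKO replicate 1, and 0.791 for WT replicate 1 with cKO replicate 1. With WT replicate 3 and cKO replicate 2 left out together, 30 of the 41 genes were called lower and 1 higher. Of all genes tested then, 19% were lower and 19.8% higher. The 30 shared 28 genes with the main calls: FANCF was lost, and FANCE and RAD50 were gained.

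In cKO cells, 29 of the 41 genes fell, 1 rose and 11 did not pass the test (edgeR quasi-likelihood test, Benjamini-Hochberg adjusted p under 0.05). Over all 14918 mouse genes tested, 15.8% fell and 20.7% rose. The median log2 fold change of the 41 genes was -0.32, with a range from -0.94 for RECQL4 to 0.53 for TP53BP1, while the median over all tested genes was 0.00059. In shDDX21 cells, 32 of 40 genes fell, 2 rose and 6 did not pass. Over all 20188 human genes tested, 27.4% fell and 25.3% rose. The median of the 40 genes was -0.53, with a range from -2.02 for RBBP8 to 0.45 for FANCF, and the median over all tested genes was 0.0052.

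**Figure D1:**
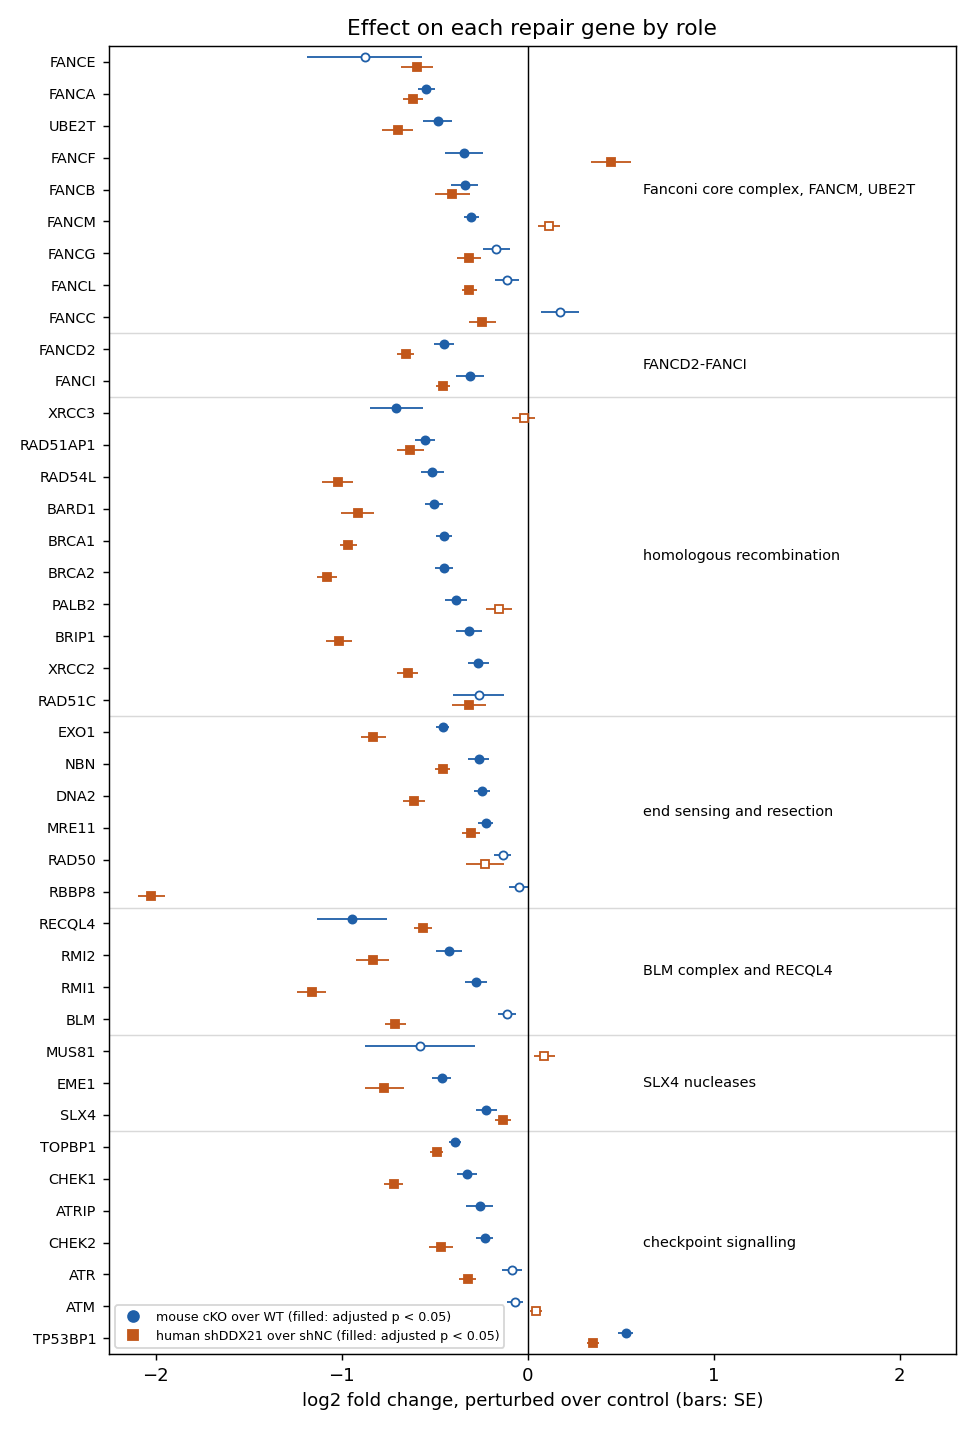
Log2 fold change of each gene with its SE, cKO over WT in mouse (blue circles) and shDDX21 over shNC in human (orange squares), grouped by role; filled points have an adjusted p under 0.05. Most points lie left of 0, TP53BP1 lies right of 0 in both experiments, and RBBP8 reaches -2.02 in human only.

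The libraries of a group had similar medians. Taking each gene as a percent of its control mean, the median over the 41 genes was 99.6%, 99.3% and 101% in WT replicates 1 to 3, whereas cKO replicates gave 78.8%, 80.5% and 79.2%. In the human libraries the median over 40 genes was 101%, 99.4% and 100% in shNC and 69%, 68.7% and 72.4% in shDDX21. The median gene had a coefficient of variation of 3.53% in WT, 4.53% in cKO, 2.91% in shNC and 4.65% in shDDX21. In bulk RNA, fewer cells that use a gene and less of its RNA per cell cannot be told apart.

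**Figure D2:**
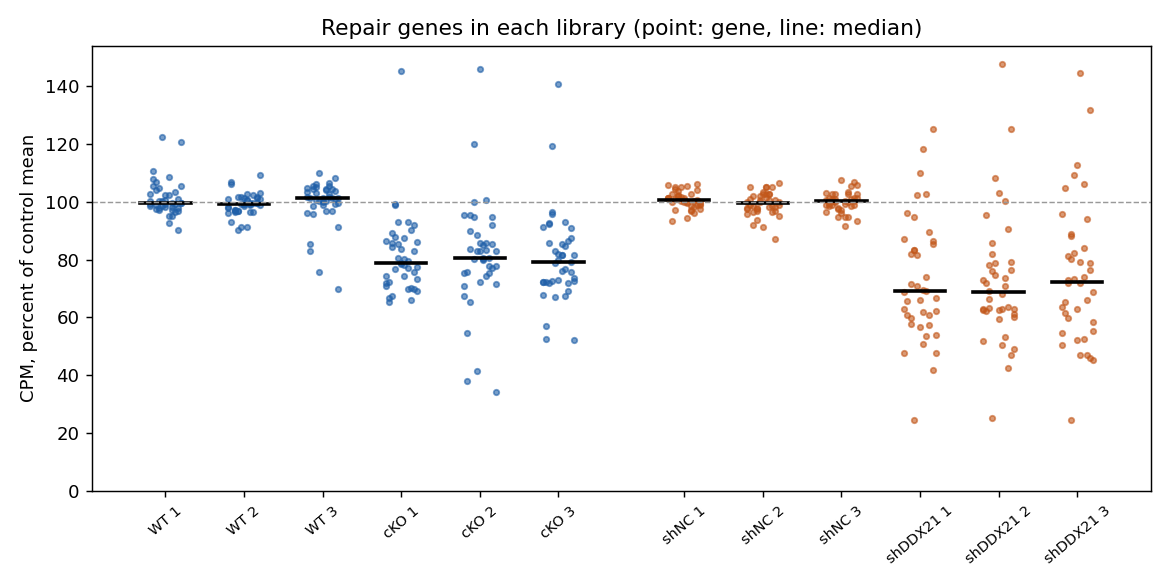
CPM of each repair gene in each library as a percent of the gene's control mean; black lines are medians over 41 mouse or 40 human genes. The cKO medians sit between 78.8% and 80.5% and the shDDX21 medians between 68.7% and 72.4%, and the low points of cKO replicate 2 are RECQL4, FANCE and MUS81.

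Within the Fanconi core group (FANCA, FANCB, FANCC, FANCE, FANCF, FANCG, FANCL, the translocase FANCM and UBE2T), 5 of 9 genes fell in cKO cells and none rose. Of all mouse genes tested, 15.8% fell and 20.7% rose. FANCA, a scaffold subunit, stood at 98.7, 97.1 and 92.6 CPM in WT and at 68.0, 64.7 and 65.2 CPM in cKO. The groups did not overlap (log2 fold change -0.54 ± 0.046 SE, adjusted p = 0.000129). FANCB, FANCF, FANCM and UBE2T fell by 0.30 to 0.48 on the log2 scale. FANCL, the ubiquitin ligase of the complex, had a log2 fold change of -0.11 (adjusted p = 0.202), and FANCC one of 0.17 (adjusted p = 0.225). FANCE, which bridges the core complex to FANCD2, had a value of -0.88 with an SE of 0.311 (adjusted p = 0.0636). Its WT level ran from 36.0 CPM in replicate 1 to 20.8 CPM in replicate 3, and its cKO level from 23.1 CPM in replicate 1 to 10.2 CPM in replicate 2, so the groups overlapped.

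In the human cells 7 of these 9 genes fell, among them FANCA with -0.62 ± 0.053 (SE, adjusted p = 5.59e-17), UBE2T with -0.70, FANCE with -0.59 and FANCL with -0.31. Of all human genes tested, 27.4% fell and 25.3% rose. FANCM did not pass, with 0.12 (adjusted p = 0.102). FANCF, an adaptor subunit, went the other way. Its level was 8.91, 8.65 and 7.74 CPM in shNC and 9.98, 12.5 and 12.2 CPM in shDDX21. All 3 knockdown libraries were above all 3 controls (log2 fold change 0.45 ± 0.107 SE, adjusted p = 0.000266). In mouse the same gene stood at 8.78, 7.39 and 8.11 CPM in WT and at 6.48, 6.52 and 6.16 CPM in cKO. All cKO libraries were lower (log2 fold change -0.34 ± 0.102 SE, adjusted p = 0.0348). This mouse call did not hold under 11 of 14 alternatives, where the adjusted p reached 0.12. FANCF is a small gene (mm10 chr7:51860577-51862267, hg38 chr11:22622533-22625823), and 15% of its mouse exon bases lie opposite an exon of Gas2.

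FANCD2 and FANCI, the pair that the core complex ubiquitinates, fell in both experiments. FANCD2 dropped by 0.45 ± 0.054 (SE) in cKO cells and by 0.66 ± 0.044 (SE) in shDDX21 cells on the log2 scale. FANCI dropped by 0.31 and 0.46, and its mouse call did not hold under total-count scaling or without cKO replicate 3 (adjusted p up to 0.0715). The Fanconi genes outside the 41 were the FAAP subunits, CENPS, CENPX, USP1, RFWD3 and others. Of these 13, 2 fell in mouse and none rose, a share of falls near the 15.8% of all mouse genes. In human 7 of the 13 fell and 1 rose, beside 27.4% lower and 25.3% higher over all human genes. RFWD3, a ubiquitin ligase, fell in both, by 0.32 and 0.43. USP1, which removes ubiquitin from FANCD2, fell by 1.11 in human, and FAAP20 rose by 0.39 there.

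Among the recombination genes, 9 of 10 fell in cKO cells and 8 of 10 in shDDX21 cells, and none rose. Of all genes tested, 15.8% fell and 20.7% rose in mouse, and 27.4% fell and 25.3% rose in human. BRCA2 is the mediator that starts strand exchange on resected DNA. Its level was 153, 152 and 155 CPM in WT, then 106, 119 and 112 CPM in cKO. In human it was 62.0, 59.6 and 66.4 CPM in shNC and 29.9, 30.7 and 28.4 CPM in shDDX21. Both pairs of groups were separate, with log2 fold changes of -0.45 ± 0.049 (SE, adjusted p = 0.000448) and -1.08 ± 0.052 (SE, adjusted p = 2.06e-29). BRCA1 and its partner BARD1 fell by 0.45 and 0.50 in mouse and by 0.96 and 0.91 in human. PALB2, which joins BRCA1 to BRCA2, fell by 0.39 in mouse, while in human its value was -0.15 (adjusted p = 0.0541).

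RAD54L, a motor protein that remodels DNA during strand exchange, ranked among the 5 deepest called falls in both experiments. It stood at 124, 121 and 131 CPM in WT and 82.7, 94.7 and 86.7 CPM in cKO. Human levels were 25.9, 28.4 and 26.6 CPM in shNC and 15.5, 11.4 and 12.7 CPM in shDDX21. The changes were -0.51 ± 0.060 (SE) and -1.02 ± 0.082 (SE) on the log2 scale, and 20.9% of its human exon bases are shared with genes on the other strand, mainly LRRC41.

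BRIP1, the helicase that binds BRCA1, measured 43.0, 45.5 and 47.1 CPM in WT and 33.5, 38.5 and 36.8 CPM in cKO. In human it went from 30.0, 33.3 and 31.9 CPM to 16.1, 16.0 and 14.9 CPM. No library of one group reached into the other, and the log2 changes were -0.32 and -1.01. RAD51AP1, a cofactor of strand exchange, moved from 89.9, 84.1 and 85.3 CPM in WT to 58.4, 56.4 and 62.1 CPM in cKO, and from 28.8, 25.3 and 28.2 CPM in shNC to 16.4, 17.3 and 19.7 CPM in shDDX21. Its changes of -0.55 and -0.63 differed by 0.07 ± 0.102 (SE, adjusted p = 0.559). XRCC2, a recombination mediator, fell by 0.26 and 0.65.

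XRCC3, another recombination mediator, fell in mouse, and the effects differed between the experiments (-0.69 ± 0.167 SE, adjusted p = 0.00442). Its level was 40.6, 39.0 and 30.5 CPM in WT and 26.6, 20.1 and 20.97 CPM in cKO, where WT replicate 3 was the lowest of its group but still above every cKO library (-0.70 ± 0.144 SE, adjusted p = 0.0081). In human the levels overlapped, with 30.2, 29.2 and 29.0 CPM in shNC and 28.3, 28.1 and 30.8 CPM in shDDX21 (-0.02 ± 0.063 SE, adjusted p = 0.807). Of the human XRCC3 exon bases, 76.7% are shared with KLC1 on the other strand. Whether counting used strand is not given in the sources used here, so reads of the 2 genes cannot be told apart there. RAD51C was the least abundant gene of the 41 in mouse, at 5.82 to 6.998 CPM in WT and 4.52 to 5.95 CPM in cKO, and did not pass (adjusted p = 0.175). In human it fell by 0.31 (adjusted p = 0.00287).

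Of 21 other recombination genes, 10 fell and 2 rose in mouse, beside 15.8% lower and 20.7% higher over all mouse genes. In human 10 fell and 3 rose, beside 27.4% lower and 25.3% higher over all human genes. FIGNL1, an ATPase of recombination, fell in both, by 0.47 and 0.78. RPA2, a subunit of the factor that coats exposed strands, fell by 0.54 in mouse, and the resolvase GEN1 fell by 0.76 in human. RAD51D, a recombination mediator, rose by 0.58 in mouse.

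RBBP8 showed the widest gap between the experiments. This nuclease cofactor starts resection of broken ends with MRE11. In shNC it stood at 43.9, 39.7 and 43.5 CPM and in shDDX21 at 10.4, 10.6 and 10.3 CPM. The knockdown libraries were close to each other and far below every control, at 24.6% of the control level (-2.02 ± 0.073 SE, adjusted p = 6.02e-37). In mouse its level was 71.0, 70.5 and 77.4 CPM in WT and 72.2, 69.2 and 70.4 CPM in cKO. These groups overlapped (-0.05 ± 0.052 SE, adjusted p = 0.506). Human RBBP8 lies at hg38 chr18:22798261-23026488, and 2.2% of its exon bases are shared with other genes.

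EXO1, the long-range exonuclease, fell by 0.46 ± 0.034 (SE) in cKO and by 0.83 ± 0.066 (SE) in shDDX21. DNA2 stood at 249.1, 245 and 236 CPM in WT and at 213, 195 and 207 CPM in cKO, a fall of 0.24 on the log2 scale, and fell by 0.61 in human. MRE11 fell by 0.23 and 0.30, and NBN by 0.26 and 0.46, with the mouse call of NBN lost under total-count scaling (adjusted p = 0.0596). RAD50, their partner, had values of -0.13 (adjusted p = 0.0533) and -0.23 (adjusted p = 0.0585). It stood at 190, 185 and 192 CPM in WT and 164, 181 and 173 CPM in cKO, which did not overlap. Human RAD50 stood at 10.9 to 11.97 CPM in shNC and 8.27 to 10.8 CPM in shDDX21. It shares 76.9% of its exon bases with other annotated genes, of which the gene on the same strand has 0 counts. How reads in shared bases were counted is not given in the sources used here. The human RAD50 level and test result are therefore uncertain.

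The BLM helicase works with RMI1 and RMI2 to undo joined DNA molecules. All 3 fell in shDDX21 cells, BLM by 0.71, RMI1 by 1.16 and RMI2 by 0.83. RMI1 went from 27.7, 25.8 and 26.4 CPM in shNC to 11.1, 12.5 and 12.2 CPM in shDDX21 (adjusted p = 1.55e-21). Mouse RMI1 moved from 39.2, 40.3 and 41.9 CPM to 33.6, 34.5 and 32.1 CPM, separate groups with a smaller change of -0.28 ± 0.059 (SE, adjusted p = 0.00964). RMI2 fell by 0.42 in mouse, and BLM had a value of -0.11 there (adjusted p = 0.106).

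RECQL4, a helicase of replication start, had the deepest mouse fall. Its level was 88.7, 87.9 and 70.4 CPM in WT and 53.9, 31.4 and 43.3 CPM in cKO. WT replicate 3 and cKO replicate 2 were the lowest of their groups, and the groups did not overlap (-0.94 ± 0.189 SE, adjusted p = 0.00738). Over all 14 alternatives the mouse value ran from -1.13 to -0.75. In human it fell by 0.56 ± 0.050 (SE), from 57.1 to 58.0 CPM in shNC to 37.7 to 41.4 CPM in shDDX21. RECQL4, FANCE, MUS81, XRCC3, FANCA, DNA2 and SLX4 had their lowest WT level in replicate 3 and their lowest cKO level in replicate 2. The share of all genes with this order was not counted, and FANCA stood at 64.7 and 65.2 CPM in cKO replicates 2 and 3. With WT replicate 3 and cKO replicate 2 left out together, FANCE passed the test, MUS81 did not, and the other genes with this order kept their calls. The cause of the shared order was not tested.

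SLX4, the nuclease scaffold, fell by 0.22 in mouse and by 0.13 in human. The mouse call was lost under total-count scaling and without WT replicate 1, WT replicate 2 or cKO replicate 3 (adjusted p up to 0.0726), and the human call under upper-quartile scaling (-0.06, adjusted p = 0.221). EME1, the partner of the MUS81 nuclease, fell by 0.46 ± 0.049 (SE) and 0.77 ± 0.105 (SE). MUS81 itself did not pass in either experiment, with -0.58 ± 0.294 (SE, adjusted p = 0.163) in mouse, where its cKO level spread from 5.55 to 12.4 CPM, and 0.09 (adjusted p = 0.181) in human.

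TOPBP1, the activator of ATR, had the highest level per exon length of all members in both control groups, at 43.0 CPM per kilobase of exon in WT and 16.0 in shNC. DNA2 with 41.4 and RAD50 with 35.2 followed in WT, and RECQL4 with 12.7 and RAD51AP1 with 10.7 in shNC. TOPBP1 stood at 488, 481 and 479 CPM in WT and 366, 372 and 366 CPM in cKO. Human levels were 114, 120 and 118 CPM in shNC and 84.0, 81.2 and 85.5 CPM in shDDX21. All perturbed libraries were lower, by 0.39 ± 0.031 (SE, adjusted p = 8.84e-05) and 0.49 ± 0.035 (SE, adjusted p = 3.5e-20) on the log2 scale. The effector kinases CHEK1 and CHEK2 fell as well, by 0.33 and 0.23 in mouse and by 0.72 and 0.47 in human, with the mouse call of CHEK2 lost under total-count scaling (adjusted p = 0.0508). ATRIP, the partner of ATR, fell by 0.26 in mouse (adjusted p = 0.0288), a call lost under total-count scaling and without WT replicate 1, WT replicate 2, cKO replicate 2 or cKO replicate 3 (adjusted p up to 0.104).

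Of the upstream kinases, ATM had values of -0.07 (adjusted p = 0.274) in mouse and 0.04 (adjusted p = 0.248) in human, with overlapping groups in both. ATR had -0.08 (adjusted p = 0.262) in mouse and fell by 0.32 ± 0.045 (SE) in human.

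TP53BP1, which limits resection and favours end joining, rose in both experiments and was the only one of the 40 matched genes to do so. Over all 10323 genes tested in both, 6.43% rose in both. It stood at 75.0, 75.1 and 76.7 CPM in WT and at 110, 110 and 106 CPM in cKO. In human it went from 106, 108 and 108 CPM to 134, 134 and 141 CPM. Every perturbed library was above every control library of its experiment, and the log2 changes were 0.53 ± 0.039 (SE, adjusted p = 6.5e-05) and 0.35 ± 0.033 (SE, adjusted p = 3.27e-15). The gene lies at mm10 chr2:121193281-121271407 and hg38 chr15:43403061-43510728. Of its exon bases, 15% in mouse and 28.8% in human lie opposite exons of Tubgcp4.

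**Figure D3:**
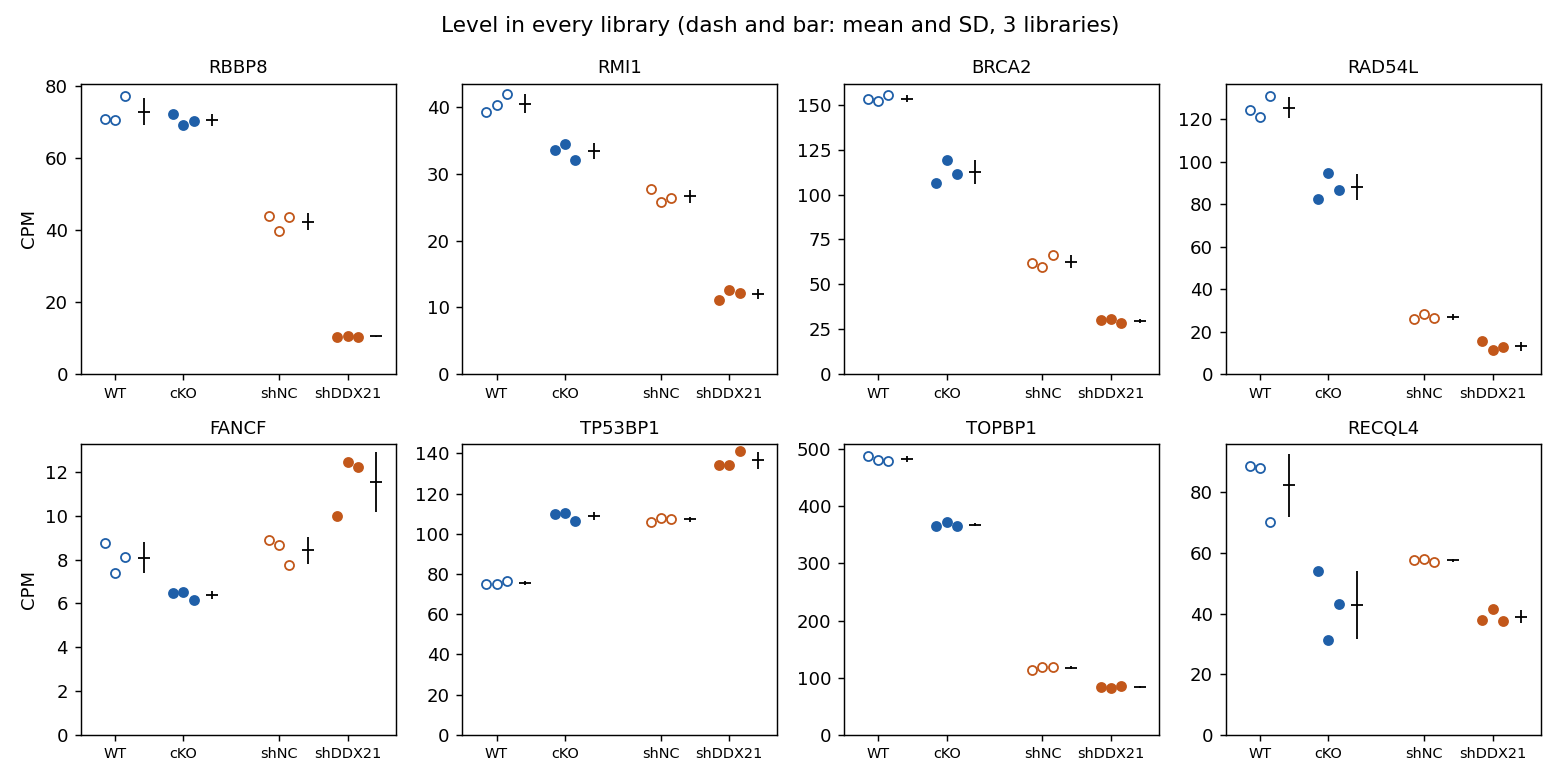
CPM of 8 genes in each library (points) with the mean and SD of 3 libraries (black). RBBP8 drops to between 10.3 and 10.6 CPM in shDDX21 and overlaps between WT and cKO, FANCF moves in opposite directions in mouse and human, and TP53BP1 is higher in every perturbed library.

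Set side by side, 24 of the 40 matched genes fell in both experiments, which is 24 of the 28 that fell in mouse and 24 of the 32 that fell in human. Over all 10323 matched genes, 10.4% fell in both. FANCM, PALB2 and XRCC3 passed the test in mouse and not in human, and ATR, BLM, FANCC, FANCE, FANCG, FANCL, RAD51C and RBBP8 in human and not in mouse. Of these 11, the difference between the experiments did not pass the joint test described next for FANCE, FANCG and RAD51C. ATM, MUS81 and RAD50 passed in neither. FANCF was lower in mouse and higher in human, a pattern held by 3.87% of all matched genes, and none of the 40 showed the reverse, which 8.98% of all matched genes did. Of the 40, 35 had the same sign in both experiments, against 52.7% of all matched genes. Across the 40 genes the 2 sets of log2 fold changes had a Pearson correlation of 0.213 and a Spearman correlation of 0.302, against 0.0096 and 0.0446 across all 10323 genes. Genes are not independent replicates, and within an experiment they share the same libraries.

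The difference between the 2 effects was tested in 1 fit over all 12 libraries. The mouse log2 effect was above the human one for 21 of the 40 genes, with 35.9% above among all matched genes, and below it for 4, with 20.4% below among all. The smallest p-values were those of RBBP8 (1.97 ± 0.078 SE, adjusted p = 3.02e-09), RMI1 (0.88 ± 0.086 SE, adjusted p = 4.39e-06) and BRCA2 (0.63 ± 0.074 SE, adjusted p = 2.18e-05). The 4 genes with the lower mouse effect were FANCF, XRCC3, FANCM and PALB2, and the difference of PALB2 was lost under 8 of 18 alternatives (adjusted p up to 0.2). The experiments differ in species, cell source, means of perturbation and time, and these cannot be told apart.

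**Figure D4:**
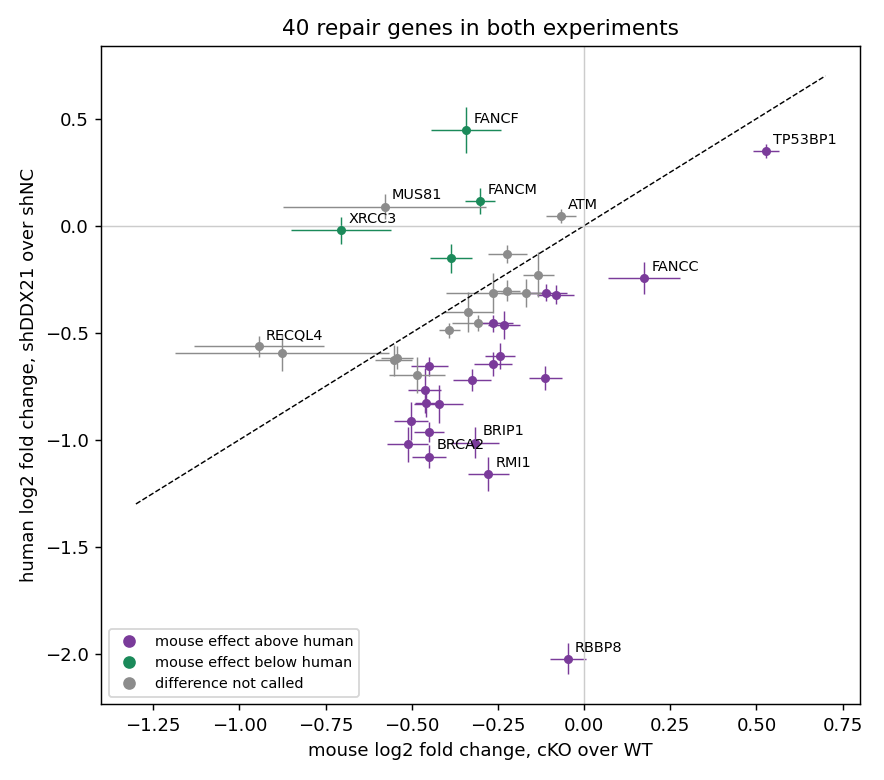
Human against mouse log2 fold change of the 40 matched genes with SE bars; the dashed line marks equal effects, and colours give the test of the difference. The 21 purple genes lie below the line, the 4 green genes above it, and RBBP8 lies farthest away.

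Promoters of the mouse genes were read for short letter patterns, since most of the 41 moved together. RefSeq windows (GRCm38.p6) from 250 bases before to 50 after the start were at hand for 33 of the 41. The E2F letters TTTCCCGC, TTTCGCGC, TTTGCCGC or TTTGGCGC, on either strand, were in 7 of the 33 (BARD1, BRCA2, CHEK2, FANCG, RAD51C, RMI1 and TOPBP1), which is 21.2%, against 2.6% of the 27025 genes with a window. A gene was counted if any of its windows matched. The 27025 genes were not limited to those expressed here, while all 33 passed the filter on low counts. The shares among expressed genes were not counted. E2F factors are known for switching on genes of DNA replication. CCAAT was in 60.6% of the 33 and 41.1% of all genes, the GC box GGGCGG in 60.6% and 38.2%, and the cell cycle element TTTGAA or TTCGAA in 9.09% and 21.7%. A GC box can share letters with an E2F match. A match describes letters and not a bound site.

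Windows from 200 bases before to 20 after the start are shown for 3 genes with E2F letters, which are in capitals, and for Trp53bp1, which rose and has none. They were chosen after the values were seen, and they do not show whether the letters go with a fall. Of the genes with E2F letters, BARD1, BRCA2, CHEK2, RMI1 and TOPBP1 fell in mouse, and FANCG and RAD51C did not pass. XRCC3, FANCA, RAD51AP1 and RAD54L, among the deepest called mouse falls, had none of these letters. ATM and ATR, which did not pass in mouse, had none either. Whether the letters go with the change was not tested. Chek2 (chr5:110839783-110840002, plus strand) fell by 0.23, with the letters from -152 to -145. Fancg (chr4:43010282-43010501, minus strand) had a value of -0.17 (adjusted p = 0.108), with the letters from -52 to -45. Topbp1 (chr9:103305127-103305346, plus strand) fell by 0.39, with the letters from -129 to -122. Trp53bp1 lies on the minus strand (chr2:121271388-121271607).
Chek2: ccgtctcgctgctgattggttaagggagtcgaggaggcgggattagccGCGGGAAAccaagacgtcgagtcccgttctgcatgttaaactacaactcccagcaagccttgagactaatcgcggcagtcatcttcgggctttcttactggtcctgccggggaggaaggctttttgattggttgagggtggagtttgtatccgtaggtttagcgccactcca
Fancg: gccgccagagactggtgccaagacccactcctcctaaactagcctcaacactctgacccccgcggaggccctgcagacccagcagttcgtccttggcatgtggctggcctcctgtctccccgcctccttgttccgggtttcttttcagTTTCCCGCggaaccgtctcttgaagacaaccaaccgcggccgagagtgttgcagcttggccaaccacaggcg
Topbp1: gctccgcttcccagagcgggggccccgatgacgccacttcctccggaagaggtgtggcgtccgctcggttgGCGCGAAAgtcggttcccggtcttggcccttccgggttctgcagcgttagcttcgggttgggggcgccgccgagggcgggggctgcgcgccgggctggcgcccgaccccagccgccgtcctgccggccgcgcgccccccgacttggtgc
Trp53bp1: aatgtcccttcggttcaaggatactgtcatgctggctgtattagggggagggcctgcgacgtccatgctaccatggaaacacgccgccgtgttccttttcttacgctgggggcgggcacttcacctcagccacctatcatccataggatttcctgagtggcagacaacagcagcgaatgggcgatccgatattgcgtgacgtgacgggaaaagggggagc

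Other repair lists were set beside the 41 genes. Over all tested genes, 15.8% fell and 20.7% rose in mouse, and 27.4% fell and 25.3% rose in human. Of 16 other checkpoint genes, 13 fell in mouse and none rose, and 13 fell in human and 1 rose. CLSPN (claspin), which brings CHEK1 to ATR, fell by 0.46 and 1.21. In human RIF1, a partner of TP53BP1, fell by 1.12 and the ubiquitin ligase RNF8 rose by 0.24. Of 14 end-joining genes, 3 fell and 3 rose in mouse, shares near those of all mouse genes. POLQ, the polymerase of microhomology joining, fell there by 0.69, and PRKDC, the catalytic subunit of DNA-PK, rose by 0.31. In human 8 of 14 end-joining genes fell and 3 rose, and PRKDC fell by 0.54.

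Of 7 mismatch repair genes, 1 rose and none fell in mouse, and 5 fell in human. MSH6, a mismatch sensor, rose by 0.16 in mouse and fell by 0.56 in human. In nucleotide excision repair, 2 of 14 genes rose and none fell in mouse, and 6 of 13 fell and 2 rose in human. The nuclease gene ERCC5 rose in mouse by 1.99 ± 0.051 (SE), to 398% of the WT level. In base excision repair, 2 of 11 fell in mouse, and 4 of 12 fell and 5 rose in human. MBD4, a glycosylase, fell by 0.31 in mouse and rose by 0.52 in human. In mouse these counts are too small to set apart from 15.8% lower and 20.7% higher over all genes. Over all human genes 27.4% were lower and 25.3% higher, and the human counts of these small lists were not tested against those shares. Differences between lists or experiments were not tested.

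The cell cycle lists fell alongside. Of 38 S-phase genes outside the 41, 32 fell in mouse and 38 in human, with medians of -0.36 and -0.81, and none rose. Of the G2 and M phase genes, 45 of 53 fell and 2 rose in mouse, and 52 of 54 fell and 1 rose in human, with medians of -0.44 and -0.71. CDC6, which loads the replication helicase, fell by 0.60 in mouse, and TOP2A, a topoisomerase, fell by 1.34 in human. PSRC1, a spindle protein, rose in both, by 3.21 and 0.76. The repair genes themselves had medians of -0.32 and -0.53. The part of cell cycle stage in the repair gene result was not tested.

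**Figure D5:**
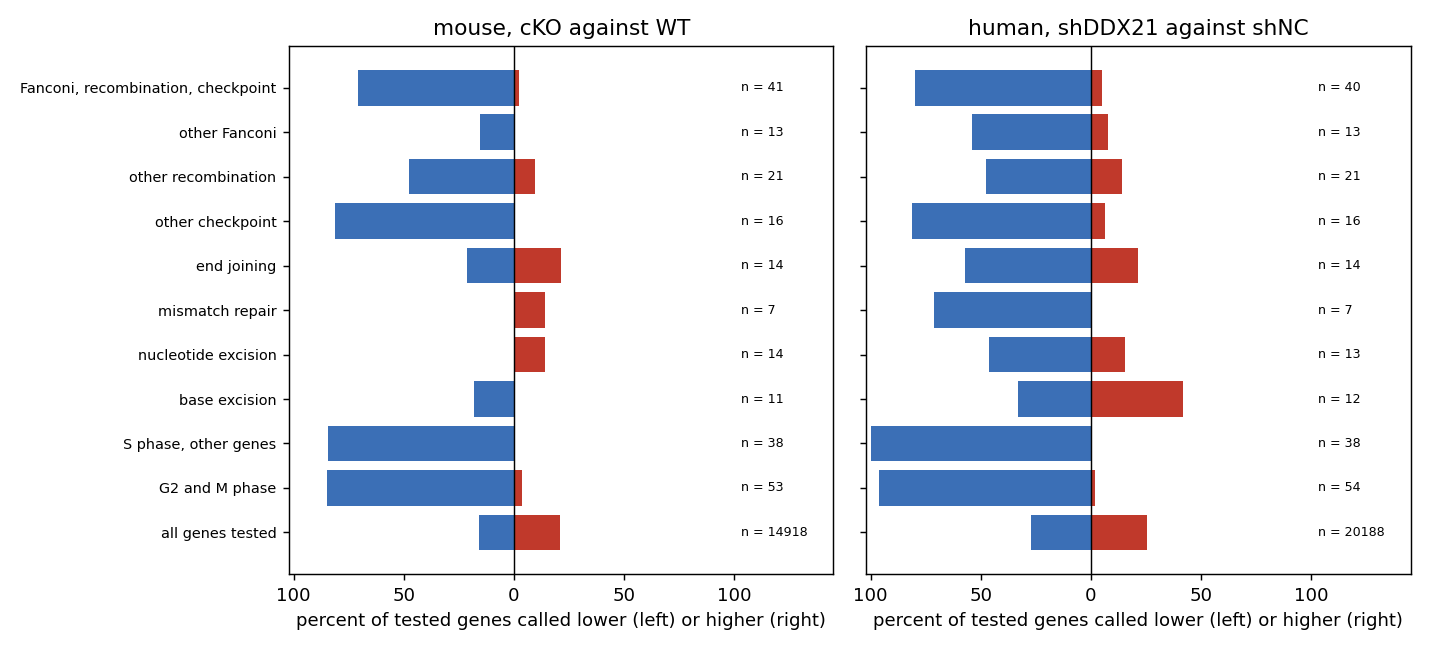
Percent of tested genes called lower (blue, left) or higher (red, right) at an adjusted p under 0.05 in each list, with the number tested. Of the 41 repair genes 29 fell in mouse, and of the 40 tested in human 32 fell, beside 15.8% and 27.4% of all genes tested.

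Markers of other cells also moved. In mouse the summed level of 15 hepatocyte genes rose from 14.7 to 16.7 CPM in WT to 50.9 to 55.2 CPM in cKO; 7 of 7 tested were higher, and Apoc3 and Cps1 had 0 counts in all 6 libraries. Granulocyte and monocyte genes summed to 719 to 982 CPM in WT and 381 to 632 CPM in cKO, with 9 of 10 lower and 1 higher. Erythroid genes summed to 1960 to 2050 and 1320 to 1430 CPM, with 5 of 10 lower and 3 higher. Much of this sum was Tfrc, with a mean of 1277 CPM in WT and 726 CPM in cKO. The 3 higher were Hbb-bt, Alas2 and Slc4a1. Lymphoid genes (6 of 8 lower, 28.8 to 31.6 CPM to 9.6 to 10.6 CPM), macrophage genes (2 of 3 lower and 1 higher, 37.2 to 40.3 CPM to 14 to 16.7 CPM), endothelial genes (6 of 10 higher, 90.3 to 115 CPM to 140 to 175 CPM) and megakaryocyte genes (5 of 8 higher, 137 to 157 CPM to 228 to 299 CPM) shifted too. In human, 7 of 7 granulocyte and monocyte genes were lower, with sums of 535 to 555 CPM in shNC and 270 to 279 CPM in shDDX21, and 7 of 11 erythroid genes were higher and 2 lower, with sums of 2020 to 2050 and 1790 to 1840 CPM. Human macrophage genes (4 of 6 lower, 2 higher, 490 to 507 CPM to 500 to 508 CPM), endothelial genes (5 of 11 lower, 5 higher, 2210 to 2270 CPM to 1930 to 1950 CPM), megakaryocyte genes (2 of 6 lower, 3 higher, 1910 to 2000 CPM to 2100 to 2130 CPM), lymphoid genes (1 of 4 lower, 33.2 to 36 CPM to 11.3 to 12.7 CPM) and hepatocyte genes (2 of 3 lower, 1 higher, 52.4 to 58.2 CPM to 72.8 to 75.4 CPM) moved in both directions or in few members. The part of these shifts in the repair gene result was not tested.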

How the data were processed

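Per the labels' protocols, poly(A) RNA of sorted live cells was made into libraries. STAR, featureCounts and DESeq2 are named in the submitters' processing notes with the builds mm10 and hg38; versions, strand setting and the handling of reads with several matches are not given in the sources used here. The authors deposited raw read counts per gene with exon lengths and positions. A deposited normalized table (unit: signal) equals the raw count over 1 constant per library, and its deposited log2 columns were not used; it gave symbols only.

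Raw counts were tested in edgeR 4.0.16 (R 4.3.3) within each experiment: filterByExpr, TMM factors, quasi-likelihood test, two-sided, Benjamini-Hochberg adjustment over all tested genes, called under 0.05. The SE was taken from the log2 fold change and its F statistic. A joint fit of 12 libraries on 10323 symbol-matched genes tested the difference of effects with 1 shared estimate of spread. The level per exon length uses the deposited length, which in human adds up many transcripts. The fits were tested on simulated data. The typical biological coefficient of variation was 10.5% in mouse and 2.23% in human.

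The 41 genes and all lists were chosen with earlier results of these data known, and 1 gene of the other lists is not reported here. Values per library are given, by rule, for the 5 deepest called falls and largest called rises in each experiment, genes with opposite calls, the 3 smallest p-values of the difference and the 3 highest levels per exon length; other lists show up to 2 genes per direction by p. Alternatives were other scalings (RLE, total counts, upper quartile), filters of at least 10 counts in every library or 1 in any, a replicate block, DESeq2 1.42.0, and each library left out. WT replicate 3 and cKO replicate 2, whose deviations went together, were left out together after the data were seen.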

Additional observations from a re-analysis of the deposited data

Results flagged for a closer look

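For 25 of the 40 matched genes the mouse effect differed from the human effect in the joint fit (adjusted p under 0.05). It was above the human effect for 21 and below it for 4. Over all 10323 matched genes it was above for 35.9% and below for 20.4%, so such differences were common among all genes. The values below are the mouse minus the human log2 fold change, so a positive value means a smaller fall, or a larger rise, in mouse.

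Among the Fanconi genes the difference was 0.42 for FANCC, 0.20 for FANCL and 0.21 for FANCD2, and -0.79 for FANCF and -0.42 for FANCM. Among the recombination genes it was 0.63 for BRCA2, 0.70 for BRIP1, 0.51 for BRCA1, 0.51 for RAD54L, 0.41 for BARD1 and 0.38 for XRCC2, and -0.69 for XRCC3 and -0.23 for PALB2. Among the resection genes it was 1.97 for RBBP8, 0.37 for EXO1, 0.37 for DNA2 and 0.19 for NBN.

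In the BLM group the difference was 0.88 for RMI1, 0.60 for BLM and 0.41 for RMI2, and for the nuclease subunit EME1 it was 0.31. Among the checkpoint genes it was 0.40 for CHEK1, 0.24 for CHEK2, 0.24 for ATR and 0.18 for TP53BP1, the last being a larger rise in mouse.

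Some of these differences did not hold under each of 18 alternatives. CHEK2 was lost under 10, NBN under 9, PALB2 under 8, FANCD2 under 7, EME1 under 5, FANCL under 4, and ATR and TP53BP1 under 1 each, upper-quartile scaling. The highest adjusted p was 0.2, for PALB2. The other 17 were called under each alternative.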

How the results depend on the processing

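Over 14 alternatives, 23 to 30 of the 41 genes were called lower in mouse, with 1 higher in each. Of all mouse genes tested, 8.92% to 19% were lower and 10.1% to 23.9% higher. Over 13 alternatives, 31 to 34 of the 40 were called lower in human, beside 11.6% to 29.9% of all human genes tested. Total-count scaling gave the 23 (FANCF, FANCI, NBN, SLX4, ATRIP and CHEK2 were no longer called) and split the calls over all mouse genes into 1618 lower and 3562 higher, against 2359 and 3083. Upper-quartile scaling raised the human genes of the list called higher from 2 to 5, adding FANCM, MUS81 and ATM. Over all human genes it raised those called higher from 5105 to 6255. It lowered the number of listed genes whose mouse effect exceeded the human one from 21 to 14, and that over all matched genes from 3701 to 3246. The cause was not tested. Leaving out single libraries gave 17 to 23 of the 40 genes with the mouse effect above, and 3 to 6 with it below. Among all matched genes, 10326 to 10425 in number, it gave 3498 to 3804 above and 1790 to 2495 below. FANCE passed in mouse under 7 alternatives, with values from -1.20 to -0.61 over all 14. TP53BP1 and human RBBP8 and FANCF kept direction and call under every alternative run. The replicate block gave 29 listed mouse genes lower (FANCF lost, FANCE gained) and 32 listed human genes lower. Of all genes tested with the block, 15.8% were lower in mouse and 27.3% in human. The differences were 19 above and 4 below (CHEK2, EME1 and PALB2 lost, MUS81 gained), beside 3582 above and 2143 below among all 10323 matched genes. Same-numbered libraries had correlations of 0.791, -0.63 and 0.0922 in mouse and -0.0377, 0.0133 and -0.00537 in human, and they did not each correlate best with their own number, so the numbers were not read as pairs.

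Signs turned only for values that were not called. Mouse RBBP8 reached 0.017 under total counts and 0.021 without WT replicate 3 and cKO replicate 2. Human XRCC3 reached 0.048 under upper-quartile scaling and ranged from -0.063 to 0.0016 with single libraries left out. The difference between experiments turned for RAD50 (-0.00051 without shDDX21 replicate 2, up to 0.18 without replicate 3), RAD51C (from -0.023 without WT replicate 1 to 0.17 without cKO replicate 1) and SLX4 (0.0011 under total counts). The least abundant mouse genes were RAD51C and FANCF; whether depth set their precision was not tested.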
